A study of Mus musculus with 6 samples.

Results

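The 137 genes described here build, anchor, hold and cut the extracellular matrix. They are collagens, laminins, integrins and integrin-related genes, the secreted ADAMTS and matrix metalloproteinase (MMP) families, and the tissue inhibitors of metalloproteinases (TIMPs). The rule takes genes by symbol, from the names of these families, among 21031 mouse protein-coding genes with a curated RefSeq transcript. The rule took in 4 genes that encode no integrin subunit: the integrin-binding proteins Itgb1bp1, Itgb1bp2 and Itgb3bp, and Itgbl1, a secreted protein that resembles a beta subunit.

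H3K27me3, the trimethylated lysine 27 of histone H3 that the Polycomb enzyme EZH2 writes and that marks silent chromatin, was mapped by ChIP-seq in primary granulosa cells. The cells came from wild type C57BL/6J mice aged 8 to 9 weeks, were pooled across animals and were plated in 6 dishes. The control group of 3 samples was given no DHT, and the other 3 were kept for 24 h with dihydrotestosterone (DHT) at 25 nM, an androgen that aromatase cannot turn into estrogen. The labels and the methods of the study give different numbers of mice, and nothing states which animals went into which dish.

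The deposited files hold 1 peak list per group (16345 control and 3975 DHT peaks, called in the mm9 assembly) and lists of gene symbols drawn from those peaks. A gene body list holds every gene overlapped by at least 1 peak of its group, and a promoter list every gene with a peak within 1 kb of its start. No value per sample or per gene was used here, so neither the depth of a sample nor the spread between replicates is known, no test between control and DHT was possible, and every statement below compares lists. The number, height and position of the peaks inside a member are not given either, because an mm9 gene annotation was not used here. The cell type could not be checked against markers, since these files hold no expression levels.

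As background, granulosa cells sit on a basement membrane of type IV collagen and laminin that separates them from the theca, and they hold it through integrins. Type IV collagen and laminin form sheet-like networks, while fibrillar collagens give tensile strength to the stroma and to the follicle wall. ADAMTS and MMP enzymes remodel these layers as a follicle grows and when it ruptures at ovulation, and TIMPs restrain them. H3K27me3 in most cell types gathers at CpG-rich promoters of silent developmental genes, and it can also spread over gene bodies.

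The control gene body list held 33 of the 137 members (24.1%, 95% Wilson interval 17.7 to 31.9%), compared with 13.6% of all protein-coding genes. In the DHT gene body list there were 20 members (14.6%, interval 9.65 to 21.5%), against 4.96% of all protein-coding genes. Of these, 11 members were in both lists (background 3.01%), 22 in the control list alone (10.6%) and 9 in the DHT list alone (1.95%). Together 42 members had a gene body peak in one group or the other (background 15.5%) and 95 had none. The intervals cover counting error only.

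**Figure D1:**
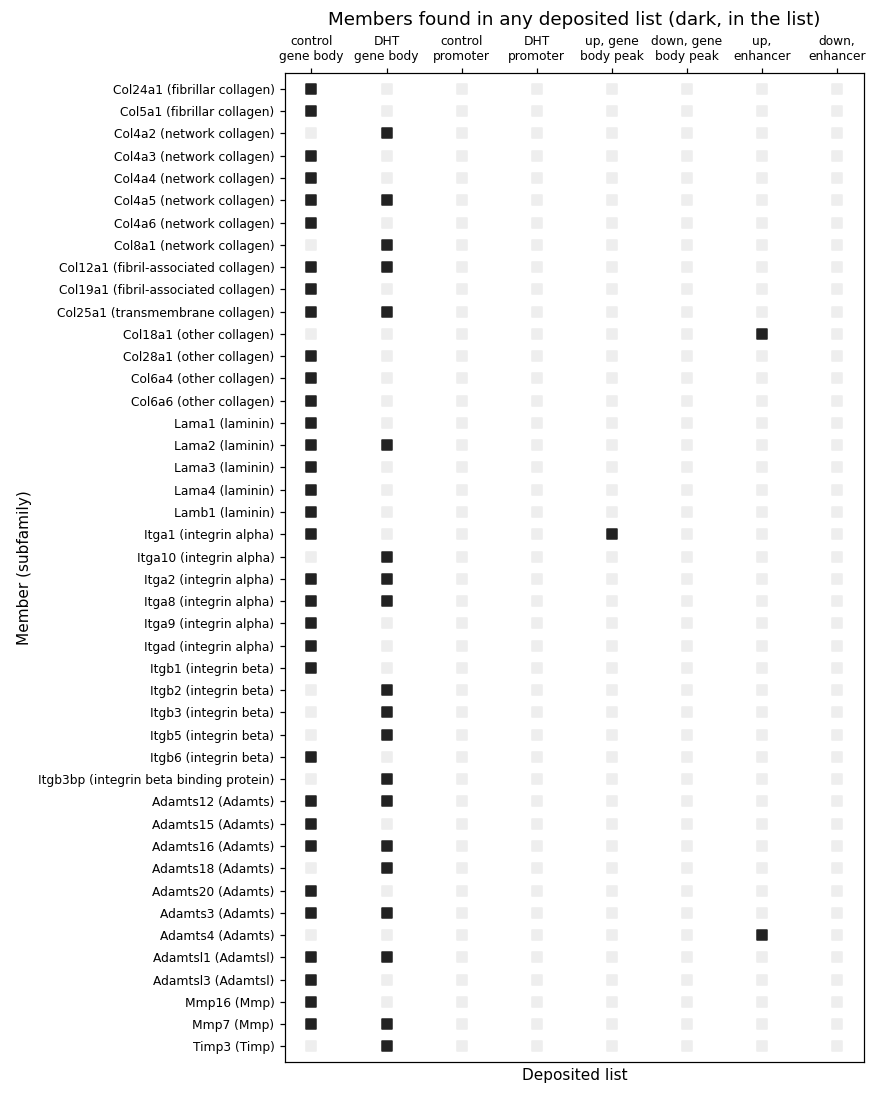
Each row is a member found in at least 1 deposited list and each column is a list, with a dark square where the list holds the member. The 33 control and 20 DHT gene body entries fill the first 2 columns, the promoter columns are empty, and Itga1, Col18a1 and Adamts4 are in lists of upregulated genes.

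These shares have to be read against gene length, since a long gene has more room for a peak. Members were long, with a median RefSeq length of 49.5 kb, compared with 17.6 kb for the other protein-coding genes. The members in both lists had a median length of 210 kb, those in the control list alone 144 kb, those in the DHT list alone 62.5 kb and those in neither list 32.4 kb. Of the 35 longest members 23 were listed in at least 1 group, and of the 34 shortest 2 were.

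When each member was given the share of listed genes in its own class of gene length, out of 50 classes with members left out, the control list would hold 39.6 members, and it held 33. The DHT list would hold 14.8 and held 20. Observed over length-based number was thus 0.832 in control and 1.36 after DHT. Both length-based shares, 28.9% and 10.8%, lay inside the intervals of the observed shares. The excess over all genes in the control list was therefore no longer there among genes of like length. Over all 137 members, neither list departed from such genes by more than counting error. Like length gave 9.53 members in both lists, where 11 were found. It gave 30.1 in the control list alone (22 found) and 5.22 in the DHT list alone (9 found). These length-based shares, 6.96%, 22.0% and 3.81%, also lay inside the intervals of the observed shares. Without the collagens, 16.1% of the remaining 93 members were in the DHT list, and the 9.13% from like length then lay below the interval of that share.

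**Figure D2:**
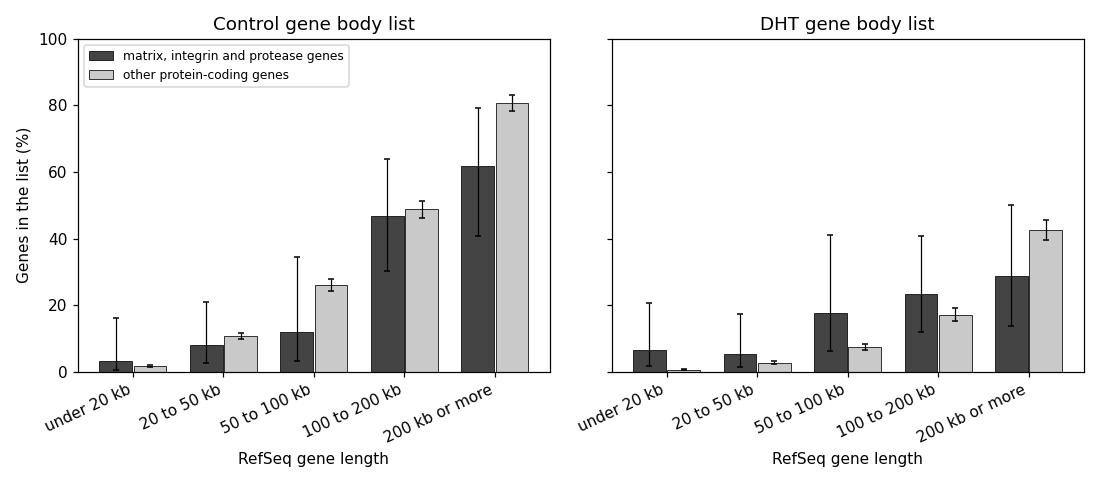
Bars give the percentage of genes in the control (left) and DHT (right) gene body lists in 5 bands of RefSeq gene length, for the 137 members (dark) and the other protein-coding genes (light), with 95% Wilson intervals. Among genes of 200 kb or more, 61.9% of members and 80.8% of other genes were in the control list.

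By bands of length, the control list held 1 of 31 members under 20 kb (3.23%, other genes 1.75%), 3 of 38 from 20 to 50 kb (7.89%, other genes 10.7%) and 2 of 17 from 50 to 100 kb (11.8%, other genes 26.0%). Between 100 and 200 kb it held 14 of 30 (46.7%, other genes 48.8%), and at 200 kb or more 13 of 21. That last share, 61.9% (interval 40.9 to 79.2%), was below the 80.8% of other genes as long. In the DHT list, members had the higher share in each band under 200 kb and the lower one above it. The list held 2 of 31 members under 20 kb (6.45%, interval 1.79 to 20.7%, other genes 0.573%) and 2 of 38 from 20 to 50 kb (5.26%, interval 1.46 to 17.3%, other genes 2.71%). It held 3 of 17 from 50 to 100 kb (17.6%, interval 6.19 to 41.0%, other genes 7.34%), 7 of 30 from 100 to 200 kb (23.3%, interval 11.8 to 40.9%, other genes 16.9%) and 6 of the 21 longest (28.6%, other genes 42.6%). Of the bands under 200 kb, the share of other genes lay outside the members' interval in the shortest and inside it in the other 3. These are small numbers of genes, described after they had been seen.

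Among members in the control list, 11 of 33 were also in the DHT list (33.3%, interval 19.8 to 50.4%). Of the other control-listed genes 22.0% were also in the DHT list, and control-listed genes of like length gave 26.1%, inside that interval. Seen from the DHT list, 11 of 20 members were also in the control list (55.0%), where like length gave 57.0%. Neither share departed from that of genes of like length by more than counting error. An entry in the control list alone means that no peak was called after DHT, in a group with fewer peaks throughout the genome, and is no measure of how far the mark fell.

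**Figure D3:**
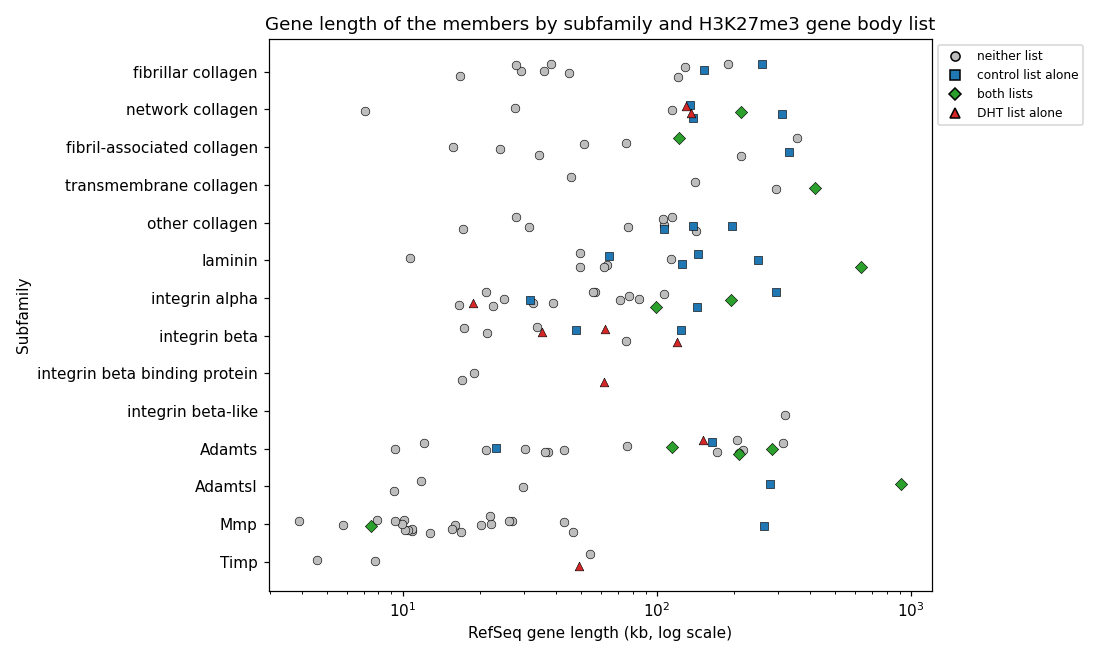
Each point is a member, placed by its RefSeq gene length in kb on a log scale and by subfamily, with the symbol giving its gene body list. Listed members sit mostly to the right; Mmp7, Itga10, Adamts15, Itgad and Itgb2 are the 5 shortest listed members.

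Collagens made up 44 members. The control list held 12 (16.7 from genes of like length) and the DHT list 5 (6.26). Fibrillar collagens, which form the rope-like fibrils of connective tissue, were listed in 2 of 11 cases, Col5a1 (153 kb) and Col24a1 (260 kb), both in the control list alone. Genes of like length gave 3.45 in control. The main fibril genes Col1a1, Col1a2 and Col3a1 were in neither list. Among the 9 fibril-associated collagens, which decorate those fibrils, Col12a1 (122 kb) was in both lists and Col19a1 (330 kb) in control alone. Like length gave 3.22 in control and 1.23 after DHT. Of the 4 transmembrane collagens, Col25a1 (420 kb) was in both lists. Col6a4 (107 kb), Col6a6 (139 kb) and Col28a1 (197 kb) were in the control list alone. Col6a1 (17.3 kb), Col6a2 (27.9 kb) and Col6a3 (77.1 kb), the common chains of the beaded type VI filament, were in neither. Of the genes nearest to these common chains in length, 4.0%, 9.0% and 29.0% were in the control list. For Col6a4 and Col6a6 that share was 36.0% and 51.0%.

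The 9 network-forming collagens, among them the chains of the follicular basement membrane, had 4 entries in control (3.96 from like length) and 3 after DHT (1.45). Col4a3 (135 kb), Col4a4 (139 kb) and Col4a6 (309 kb) were in the control list alone, and Col4a5 (214 kb) was in both. Col4a2 (136 kb) and Col8a1 (130 kb), the latter of vessel and corneal basement membranes, entered the DHT list alone. The 6 type IV chains thus had 4 entries in control, where like length gave 3.43, and 2 after DHT, where it gave 1.25. Col4a1 (114 kb) was the chain in neither list.

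The type IV genes lie as head-to-head pairs, so that members of a pair start beside each other and run apart. The pairs differed in their entries. Col4a3 and Col4a4 shared the same entry, whereas Col4a5 was in both lists and its partner Col4a6 in control alone, and Col4a2 was in the DHT list while its partner Col4a1 was in none. None of the 6 was in a promoter list.

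The starts of the pairs Col4a1 and Col4a2, and Col4a5 and Col4a6, are shown because each pair shares a start region while its gene bodies differ in their entries. The windows run 5′ to 3′ from 250 bases before to 50 bases after the RefSeq start in GRCm38.p6, a later assembly than that of the peaks, with each CpG in capitals. On opposite strands, the windows of Col4a1 and Col4a2 overlap by 78 bases, and those of Col4a5 and Col4a6 are 842 bases apart.
Col4a1, chr8:11312777-11313076, minus strand: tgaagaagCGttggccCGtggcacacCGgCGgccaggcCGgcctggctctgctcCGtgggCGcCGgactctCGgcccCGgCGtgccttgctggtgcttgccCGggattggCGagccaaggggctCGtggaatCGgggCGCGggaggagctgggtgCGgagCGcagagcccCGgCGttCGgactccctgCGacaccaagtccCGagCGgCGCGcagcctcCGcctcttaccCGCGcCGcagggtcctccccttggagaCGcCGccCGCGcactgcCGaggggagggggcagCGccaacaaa
Col4a2, chr8:11312555-11312854, plus strand: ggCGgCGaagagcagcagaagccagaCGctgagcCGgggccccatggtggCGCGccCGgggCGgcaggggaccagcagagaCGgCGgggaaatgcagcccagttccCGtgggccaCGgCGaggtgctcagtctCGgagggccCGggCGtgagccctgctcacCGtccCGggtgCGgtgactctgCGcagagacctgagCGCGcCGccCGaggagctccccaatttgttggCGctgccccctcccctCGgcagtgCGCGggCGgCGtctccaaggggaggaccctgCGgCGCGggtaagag
Col4a5, chrX:141475169-141475468, plus strand: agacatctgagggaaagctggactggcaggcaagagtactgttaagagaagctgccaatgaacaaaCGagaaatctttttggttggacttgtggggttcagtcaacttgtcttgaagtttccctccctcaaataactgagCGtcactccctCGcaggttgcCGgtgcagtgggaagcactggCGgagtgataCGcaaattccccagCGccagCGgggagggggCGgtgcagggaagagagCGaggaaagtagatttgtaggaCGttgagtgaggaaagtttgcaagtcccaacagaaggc
Col4a6, chrX:141474027-141474326, minus strand: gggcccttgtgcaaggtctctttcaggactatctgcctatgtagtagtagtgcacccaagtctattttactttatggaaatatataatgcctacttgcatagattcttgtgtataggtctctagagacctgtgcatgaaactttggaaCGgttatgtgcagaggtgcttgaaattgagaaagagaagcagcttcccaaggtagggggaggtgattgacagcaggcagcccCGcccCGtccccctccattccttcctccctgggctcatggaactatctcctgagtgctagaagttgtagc

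The starts of the first pair were rich in CpG, with 37 and 33 CpG and a GC content of 74.0% and 73.7%. Col4a5 had 11 CpG (52.7% GC) and Col4a6 3 CpG (48.3% GC). A start poor in CpG was therefore found beside a control entry, and a start rich in CpG beside a DHT entry alone and beside no entry.

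Laminins, the cross-shaped trimers that bind integrins from the basement membrane, had 5 of 11 genes in the control list (4.18 from like length) and 1 after DHT (1.72). Of the 5 alpha chains, which carry the main integrin-binding sites, 4 were listed in control (2.84 from like length). Lama1 (126 kb), Lama3 (250 kb) and Lama4 (145 kb) were in that list alone, and Lama2 (636 kb) in both. The 3 beta chains had 1 control entry (0.442 from like length) and the 3 gamma chains 0 (0.901). These groups of chains were formed after the lists had been read. Of the 200 genes nearest to Lama2 in length, the control list held 96.0% and the DHT list 58.0%. Lamb1 (64.5 kb), the common beta chain, was in control alone, with 24.0% of genes of like length listed.

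Integrins, the receptors that pair an alpha with a beta subunit, are the group in which the lists differed most in number from genes of like length after DHT. Of 27 subunits 7 were in the control list (6.45 from like length) and 6 in the DHT list (2.1). This group merges the alpha and beta subfamilies. As 14 subfamilies, several merged groups and both lists were looked at, one such difference among them is a description and not a test.

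Of the 4 collagen-binding alpha subunits, a role grouped after the lists had been read, 2 were in the control list (1.28 from like length) and 2 in the DHT list (0.452). Itga1 (144 kb) was in control alone, Itga2 (99.0 kb) in both lists and Itga10 (18.9 kb) in the DHT list alone, while Itga11 (106 kb) was in neither. For Itga10, 2.50% of the 200 genes nearest in length were in the DHT list. Itgb1 (47.9 kb), the beta subunit with which all of them pair, was in the control list alone.

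Itga8 (195 kb), a receptor for the RGD motif of fibronectin and nephronectin, was in both lists. The other RGD-binding alpha subunits, Itga5 (22.5 kb), Itgav (84.6 kb) and Itga2b (16.6 kb), were in neither. Itgb3 (62.5 kb) and Itgb5 (120 kb), partners of the alpha v subunit, were in the DHT list alone, and Itgb6 (124 kb), another partner, in control alone. Itgb8 (75.5 kb) was in neither list. Of the 4 RGD-binding alpha subunits, 1 was thus in each list, where like length gave 1.11 in control and 0.339 after DHT.

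Itga3, Itga6 and Itga7, the laminin-binding alpha subunits, were in neither list, where like length gave 0.429 in control. Itga9 (294 kb), which binds tenascin and other ligands, was in control alone. Among subunits of leukocytes, Itgad (31.6 kb) was in control alone and Itgb2 (35.4 kb), the shared beta subunit, in the DHT list alone, with 1.5% of genes of like length in that list. Leukocyte genes are silent in granulosa cells as a rule, and Itgal, Itgam, Itgax and Itgae, of the same class, were in neither list. Of the genes nearest to each of them in length, between 6.0% (Itgax) and 22.5% (Itgam) were in the control list. Itgb3bp (61.8 kb), a nuclear receptor coregulator with an integrin-derived name, was in the DHT list alone.

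**Figure D4:**
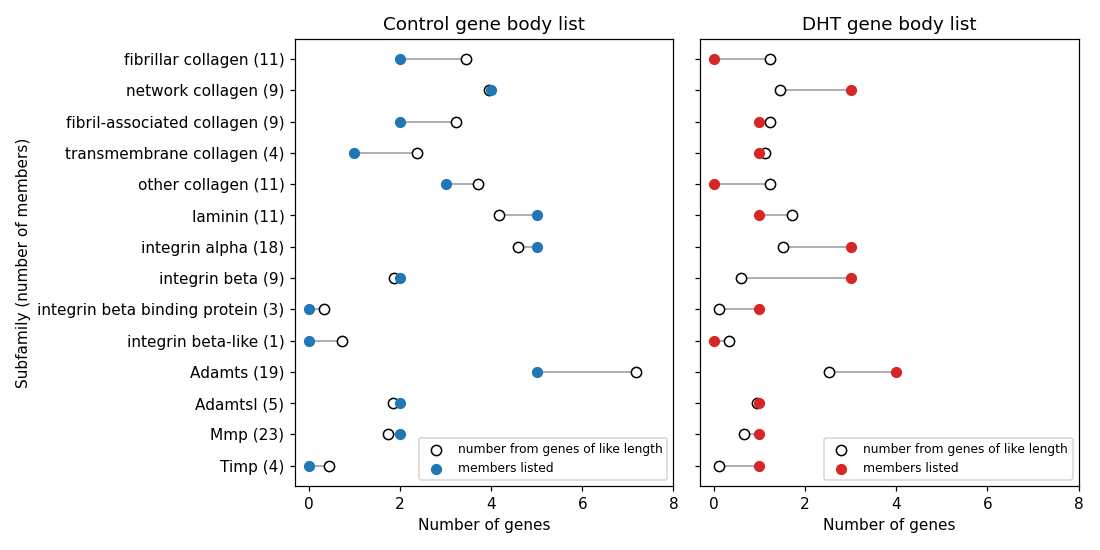
For each subfamily (number of members in brackets), filled points give how many members were in the control (left) or DHT (right) gene body list, and open points the number from protein-coding genes in the same of 50 classes of length. The widest gaps are Adamts in control, 5 against 7.18, and beta integrins after DHT, 3 against 0.584.

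Of the 19 ADAMTS proteases 5 were in the control list (7.18 from like length) and 4 in the DHT list (2.52). Adamts3 (210 kb), which processes procollagen, and Adamts12 (284 kb), which cleaves cartilage oligomeric matrix protein, and Adamts16 (114 kb), the last known for roles in the ovary and kidney, were in both lists. Adamts20 (164 kb) and Adamts15 (23.3 kb), proteases of versican-like proteoglycans, were in control alone, and Adamts18 (152 kb) in the DHT list alone. Adamts1 (9.29 kb), the ovulatory protease that cleaves versican in the cumulus matrix, was in neither list. Of the genes nearest to it in length, 3.5% were in the control list. The related ADAMTS-like genes, which lack the protease domain, had Adamtsl1 (915 kb) in both lists and Adamtsl3 (279 kb) in control alone. Adamtsl1 was the longest of all members, and 97.5% of genes nearest to it in length were in the control list.

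The 23 MMP genes were short, with a median of 12.7 kb, and 2 were listed where genes of like length gave 1.74 in control. Mmp16 (264 kb), a membrane-type enzyme and the longest of them, was in control alone. Mmp7 (7.50 kb), the secreted matrilysin, was in both lists, although genes of like length were listed in 1.00% of cases in control and in 0.5% after DHT. It was the shortest of the 42 listed members. The gelatinases Mmp2 and Mmp9 and the interstitial collagenases were in neither list. Of the genes nearest in length, 8.0% (Mmp2) and 4.0% (Mmp9) were in the control list. For the interstitial collagenases that share ran from 0.5% (Mmp13) to 8.0% (Mmp1b). With shares this low, the absence of these enzymes says little.

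Mmp7 is the last of 10 MMP genes that follow each other with no other protein-coding gene between, from Mmp13 to Mmp7, and it was the listed one. A long noncoding RNA gene, AV064505, covers 47.3% of the Mmp7 span in GRCm38.p6 and was also in both lists, so the entries of these overlapping genes cannot be told apart. The RefSeq start of Mmp7 is shown because the gene stands apart from members of its size.
Mmp7, chr9:7691840-7692139, plus strand: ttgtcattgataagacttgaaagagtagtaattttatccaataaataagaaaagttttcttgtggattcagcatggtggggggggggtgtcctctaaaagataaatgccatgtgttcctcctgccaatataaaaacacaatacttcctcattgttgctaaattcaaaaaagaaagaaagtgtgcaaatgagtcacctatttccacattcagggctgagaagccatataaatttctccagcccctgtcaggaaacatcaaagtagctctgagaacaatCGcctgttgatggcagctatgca
This window held 1 CpG and 39.0% GC, and is the first of 2 windows listed for the gene.

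Of the 4 TIMP genes, Timp3 (49.1 kb), the inhibitor that binds to the matrix, was in the DHT list alone, where genes of like length gave 4.0%. Timp3 lies wholly within Syn3, a neuronal gene that was in both lists. Timp4 lies likewise within Syn2, also in both lists, but was itself in neither. Timp1 and Timp2 had no entry. A list entry of a nested gene does not show which of the genes the peak belongs to.

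Some long members had no peak. The 5 longest in neither list were Col22a1 (355 kb), Itgbl1 (319 kb), Adamts17 (313 kb), Col23a1 (294 kb) and Adamts19 (218 kb). Of the 200 genes nearest to each in length, between 65.5% (Adamts19) and 82.0% (Col22a1) were in the control list. At the other end, Mmp7, Itga10, Adamts15, Itgad and Itgb2 were the 5 shortest with an entry, and for them that share ran from 1.00% (Mmp7) to 10.5% (Itgad). Each band of length given above thus held both listed and unlisted members. The share in the control list rose with length across the bands, among members and among other genes.

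In the genome, 36 members form 13 runs with no other protein-coding gene between them, and 9 of these runs had a listed member. A run of several genes has more chances to hold one. Of the 36 members in runs 13 were listed, beside 42 of all 137 members (30.7%). Itga2 and Itga1 are neighbours, the first in both lists and the second in control alone. Of the 3 neighbours Col6a4, Col6a5 and Col6a6, the outer genes were in control alone and Col6a5 was in neither. Itgam and Itgax had no entry beside Itgad, Col9a1 none beside Col19a1, and Adamts8 none beside Adamts15, each listed neighbour being in control alone.

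No member was in a promoter list. The control promoter list held 0.637% of all protein-coding genes and the DHT promoter list 0.195%, and members would contribute 0.875 and 0.260 genes at the rates of like length. Both length-based numbers are below 1 gene, so a shortfall could not have been seen in lists this short.

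The deposited lists of genes regulated by DHT hold only genes that also carry a peak or are linked to an enhancer. For these lists the paper kept enhancers whose H3K27me3 was negatively correlated with expression of the gene across samples. A regulated member without a peak or such a link cannot appear in them. How often regulated members carry the mark therefore cannot be read from these lists. The authors' list of genes that rose and carried a peak in the gene body (0.0999% of protein-coding genes) held 1 member, Itga1. Itga1 was in the control list alone, so its peak was called in control and none was called after DHT. Col18a1 (114 kb), whose C-terminal fragment is endostatin, and Adamts4 (12.1 kb), an aggrecanase, were in the list of upregulated genes linked to an enhancer (0.281% of genes). Neither of them had a gene body peak. The lists of downregulated genes, with a gene body peak (0.0666%) or an enhancer (0.147%), held 0 members. With 3 members in all, no share can be drawn from them.

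The RefSeq starts of Itga1 and of Col18a1 (the first of its listed windows) are shown as those of the regulated members for which a window was at hand, with CpG in capitals as above.
Itga1, chr13:115101915-115102214, minus strand: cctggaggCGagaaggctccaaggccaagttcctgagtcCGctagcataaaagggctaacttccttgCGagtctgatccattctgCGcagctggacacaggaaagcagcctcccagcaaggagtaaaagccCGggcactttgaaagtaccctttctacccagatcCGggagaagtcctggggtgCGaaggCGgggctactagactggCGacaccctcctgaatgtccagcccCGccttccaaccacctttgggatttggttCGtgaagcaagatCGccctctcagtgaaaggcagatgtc
Col18a1, chr10:77166481-77166780, minus strand: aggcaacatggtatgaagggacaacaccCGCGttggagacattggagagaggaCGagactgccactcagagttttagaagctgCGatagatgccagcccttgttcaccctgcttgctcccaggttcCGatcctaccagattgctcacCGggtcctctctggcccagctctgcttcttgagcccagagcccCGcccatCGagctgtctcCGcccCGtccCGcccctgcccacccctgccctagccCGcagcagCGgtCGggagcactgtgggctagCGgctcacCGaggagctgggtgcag
They held 12 and 16 CpG, and 56.7% and 63.3% GC. The half-site AGAACA of androgen and glucocorticoid receptors, searched on both strands (as AGAACA or TGTTCT), occurred in neither window. It was found in 13.3% of the members' windows and in 16.4% of those of other protein-coding genes. Among members, 4 of 23 windows in the control list, 4 of 15 in the DHT list and 8 of 68 in neither list held it. Some windows belong to both lists, and the numbers are small. The Mmp7 window shown above holds 1. A match is no more than a match of letters.

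Promoter windows were at hand for 98 of the 137 members. Their median GC content was 59.7% for 30 members in either gene body list and 59.2% for 68 members in neither. The median ratio of observed to expected CpG was 0.588 (quartiles 0.336 and 0.806) in listed members and 0.417 (quartiles 0.209 and 0.667) in unlisted ones. Other protein-coding genes had 0.698 when listed and 0.573 when not. Listed genes had the higher median ratio among members and among other genes, with wide overlap of the quartiles.

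**Figure D5:**
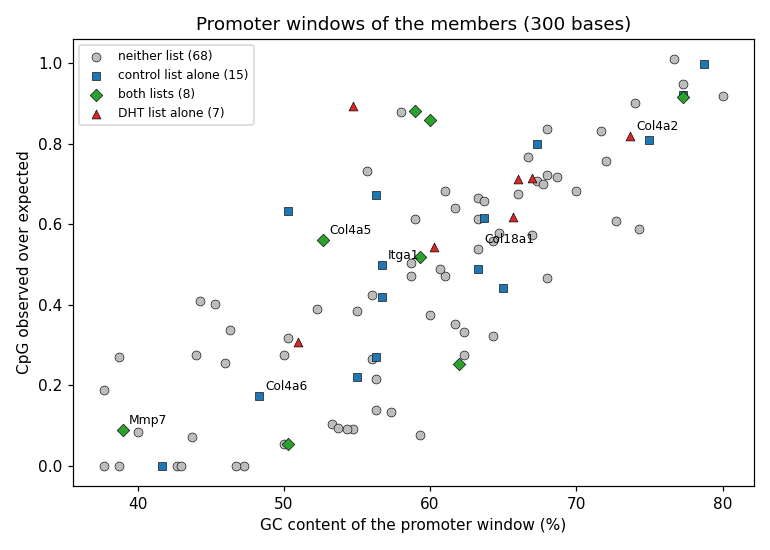
Each point is the 300-base RefSeq start window of 1 of 98 members, with GC content in percent across and the ratio of observed to expected CpG upward, and the symbol gives the gene body list. The groups overlap over most of the range, with Mmp7 at 39.0% GC and Col4a2 at 73.7%.

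For comparison, 131 other matrix genes were looked up: glycoproteins, proteoglycans, enzymes that build collagen and hyaluronan, other proteases and their inhibitors, and receptors with their adaptors. These genes were chosen with earlier results of these data known. The control list held 36 of them (32.8 from like length) and the DHT list 15 (13.4). Of 47 glycoproteins the control list held 17 (15.7 from like length) and the DHT list 10 (6.79), with Fn1 (fibronectin), Fbn1 and Fbn2 (fibrillins) and Postn (periostin) in control alone. Smoc1, Spock1, Hmcn1, Egflam and Reln were among those in both lists, and Tnc (tenascin C) and Thbs4 in the DHT list alone.

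The adhesion adaptors and receptors had 4 of 20 in control, where like length gave 5.34. The listed genes were Ptk2 (focal adhesion kinase), Tln2, Vcl (vinculin) and Fermt2. The DHT list held 0 of the 20, where like length gave 1.97. None of the 131 was in a promoter list. In the lists of downregulated genes were Efemp1 and Reln, with a gene body peak, and Acan (aggrecan), Nid2 (nidogen), Plau (urokinase) and Reln, linked to an enhancer. The downregulated list with a gene body peak has 15 entries, more than the paper counts for such genes. Whether Efemp1 and Reln are among those that the paper counts is not known here. The lists of upregulated genes held 0 of the 131. In these lists the matrix genes were therefore 3 upregulated members and 5 downregulated genes outside the families. Of all protein-coding genes, the upregulated lists held 0.0999% (gene body peak) and 0.281% (enhancer), and the downregulated lists 0.0666% and 0.147%. Regulated genes without a peak or an enhancer link are absent from them. The paper names Mmp2, a member, and Has2, one of the 131, as upregulated by DHT, and neither is in these lists. So few genes give no share, and whether this split differs from chance was not tested.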

How the data were processed

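H3K27me3 ChIP-seq of 6 samples (3 control, 3 DHT) was analysed from pooled files. The authors mapped reads to mm9 with Bowtie2 2.3.4, kept unique reads and called broad peaks with MACS2 2.1.1 at a q-value of 0.05 or less; how replicates were combined is not stated. The deposited peaks carry a fold enrichment (ratio) and a −log10 q-value, used here only to describe the lists: fold enrichment ran from 1.43 to 14.9 in control and from 1.49 to 14.4 after DHT. The authors' symbol lists carry no values. Groups followed the labelled agent. Peaks on chromosome 1 reach 197068078 and 197068729, past its end in GRCm38 (195471971), so RefSeq GRCm38.p6 gave names, lengths and neighbours only, and no peak was placed on it.

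Older symbols were mapped through unique synonyms, which matched 3135 of 3144 control and 1142 of 1146 DHT gene body entries. Members were set beside non-members in 50 equal-count classes of gene length, or the 200 nearest in length (10 classes within a list). The step was tested on simulated lists, in which the longest non-members were listed less often than in the control list, so that range was not covered. No test was made. Every member in a list was named, with lengths for those in the DHT, promoter or regulated lists, the 5 longest unlisted and the 5 shortest listed; other lengths were added after the values were seen. The members and gene lists were chosen with earlier results of these data known, and the finer roles of integrins, ADAMTS, MMP and laminin genes were grouped after the lists had been read. Python 3.11.15, numpy 2.4.6, pandas 2.3.3, scipy 1.17.1 and matplotlib 3.10.9 were used.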

Additional observations from a re-analysis of the deposited data

How the results depend on the processing

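No paired analysis was possible because each group has 1 pooled list for its 3 replicates, and for the same reason no replicate could be left out. Of 36 alternatives over 7 results, 34 stayed within the set range, 2 moved and 0 reversed. Without collagens the control list held 21 members, in place of 33, and the control list alone 13, in place of 22, by construction, as fewer genes are counted. Observed over length-based number ran from 0.791 (20 classes) to 0.917 (without collagens) in control, and from 1.18 (20 classes) to 1.77 (without collagens) after DHT; other classes, the nearest genes, other backgrounds and, chosen after the data were seen, the span of curated transcripts lay between these. Without members that overlap another listed gene, an alternative also added later, the control list held 30 members and the DHT list 18, the listed genes left out being Col4a3, Col4a4, Mmp7 and Timp3. Without collagens the like-length share for the DHT list, 9.13%, fell below the interval of the observed 16.1%; under the other alternatives both like-length shares lay inside it. Stricter peak limits could not be applied to lists of symbols. The depth of the samples is unknown, and a difference in depth between the pools cannot be told apart from an effect of DHT on the number of genes listed.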
